A study of Homo sapiens with 12 samples.

Results

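The genes described here are 34 members of the integrated stress response and the unfolded protein response, the cell's programmes for amino acid shortage and for misfolded protein in the endoplasmic reticulum (ER). They were taken by symbol from the 56832 symbols of the count files, and all 34 were found. They fall into 4 roles: 8 transcription factors, 9 genes of amino acid and one-carbon supply, 7 other outputs of the factor ATF4, and 10 genes of ER folding and degradation. Total RNA was sequenced from SW1736, a cell line established from anaplastic thyroid carcinoma, and the 12 libraries form 4 groups of 3. The cells carried the pCDH vector, either empty (pCDH-EV, here EV) or with thyroid hormone receptor beta (pCDH-TRB, here TRB, a stable expression). All were kept without hormone, in medium free of phenol red with charcoal-stripped serum, for 24 h and then given 10 nM triiodothyronine (T3), the active thyroid hormone, or its sodium hydroxide vehicle for 24 h. EV cells keep whatever receptors the line itself makes, and the sources used here do not say whether each line is a pool or 1 clone, what promoter drives the receptor, or whether the replicates are separate cultures. The p-values therefore measure the spread between these libraries, which may be technical.

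In the integrated stress response, kinases that sense amino acid shortage, ER stress, haem shortage or viral RNA phosphorylate the initiation factor eIF2. Translation then falls in general while the ATF4 messenger RNA is translated more, and ATF4 switches on genes for amino acid synthesis, uptake and charging of transfer RNA. In the unfolded protein response, the ER sensors PERK, IRE1 and ATF6 raise the folding capacity of the ER. IRE1 splices the XBP1 messenger RNA, and cleaved ATF6 and spliced XBP1 act on genes for chaperones and for ER-associated degradation. PERK is also an eIF2 kinase, so the ATF4 arm belongs to both responses. The counts show messenger RNA per gene, not splicing of XBP1, phosphorylation or protein.

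Gene counts ranged from 3819306 to 13086717 per library, and levels are given in CPM, the count relative to the TMM-scaled library size. TRB T3 replicate 2 stood apart: its difference from replicates 1 and 3 followed the GC content of the gene (Spearman -0.88 across 12334 genes). It had the lowest share of alignments that were not unique (19.03%, against 33.08% to 91.95% in the other libraries). It also matched no library column of the authors' deposited normalized table. The results below come from an edgeR quasi-likelihood fit of the other 11 libraries with Benjamini-Hochberg adjustment over 14825 genes at 0.05. The fit of all 12 libraries, over 14431 genes, is given beside them, and its biological coefficient of variation was 0.329 against 0.131. Other libraries also had a GC trend against their own group, up to -0.82 in EV T3 replicate 2 and 0.79 in replicate 3. EV T3 replicate 3 also had the highest share of non-unique alignments (91.95%) and the lowest gene count (3819306), and stayed in both fits. The labels were checked on THRB, which encodes the receptor. EV cells had 13.4, 15.2 and 15.7 CPM of THRB under vehicle and 12.5, 18.8 and 14.1 under T3. TRB cells had 81.3, 81.9 and 82.2 CPM under vehicle, 339.6 and 313 in replicates 1 and 3 under T3 and 190.1 in replicate 2, all above the EV libraries. Receptor messenger RNA in TRB cells was thus not equal between vehicle and T3 (means 81.8 and 326 CPM, without replicate 2), while EV means were 14.8 and 15.1. In TRB cells the effect of T3 and that of this unequal receptor level cannot be told apart, which also holds for the contrasts that use those T3 libraries. The epithelial markers KRT8, KRT18, KRT19 and EPCAM ranged from 52.3 to 2195 CPM. Of the thyroid lineage markers reported here, FOXE1 and TSHR had no count in 12 of 12 libraries, TG and SLC5A5 reached 0.66 CPM at most, and PAX8 and NKX2-1 reached 7.16 CPM at most. Of 9 markers of leukocytes, endothelium and fibroblasts, LYZ stood at 815 to 1587 CPM, the defining leukocyte marker PTPRC reached 0.22 CPM at most, and the other 7 reached 1.01 CPM at most.

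The comparison of T3 with vehicle asks how the hormone moves these genes, first with the line's own receptors and then with the supplied one. In both, the factors, amino acid genes and other ATF4 outputs that changed were lower with T3, with the exception of XBP1 in TRB cells, and the ER genes that changed were higher. In EV cells 17 of the 33 tested members changed, 14 lower and 3 higher, where 7.33% of all genes changed, 3.57% lower and 3.76% higher. In TRB cells 26 of 33 changed, 19 lower and 7 higher, where 33.3% of all genes changed, 15.2% lower and 18.1% higher. All 17 members that changed in EV cells also changed in TRB cells and in the same direction, 9 passed in TRB and not in EV cells, and 7 in neither; the difference between the vectors has its own test, given with the interaction term. The median log2 fold change over the 33 members was -0.35 in EV cells and -0.47 in TRB cells, and over all genes tested it was 0.01 and -0.01. In the fit of 12 libraries 18 members changed in TRB cells, 11 lower and 7 higher, each of them among the 26 and in the same direction, where 14.7% of all genes changed, 6.20% lower and 8.54% higher. That fit called 0 members in EV cells in edgeR, where 0.229% of all genes changed, 0.208% higher and 0.0208% lower, although the library added belongs to neither EV group. The median log2 fold change of the members in EV cells was -0.35 in both fits. The biological coefficient of variation, estimated over all groups together, was 0.329 with 12 libraries and 0.131 with 11. The 8 members that lost their call in TRB cells with 12 libraries were PPP1R15A, DDIT3, SESN2, ATF5, SHMT2, AARS, CEBPG and MTHFD2 (adjusted p 0.054 to 0.441). In a fit of the 6 EV libraries alone 9 of the 17 EV calls were lost, those of DDIT3, ATF3, CHAC1, ATF4, PDIA4, PSPH, SLC7A1, SESN2 and HSPA5 (adjusted p 0.0603 to 0.164), and without a count filter those of SLC7A1, PSPH and HSPA5 (0.0543, 0.0581 and 0.0737). With 12 libraries 16 members had an unadjusted p under 0.05 in EV cells, and the share of all genes at that level was not counted. DESeq2 on 11 libraries called 21 members and 1923 of 14825 genes. In bulk RNA, a change in every cell and a change in the share of cells that express a gene cannot be told apart.

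**Figure D1:**
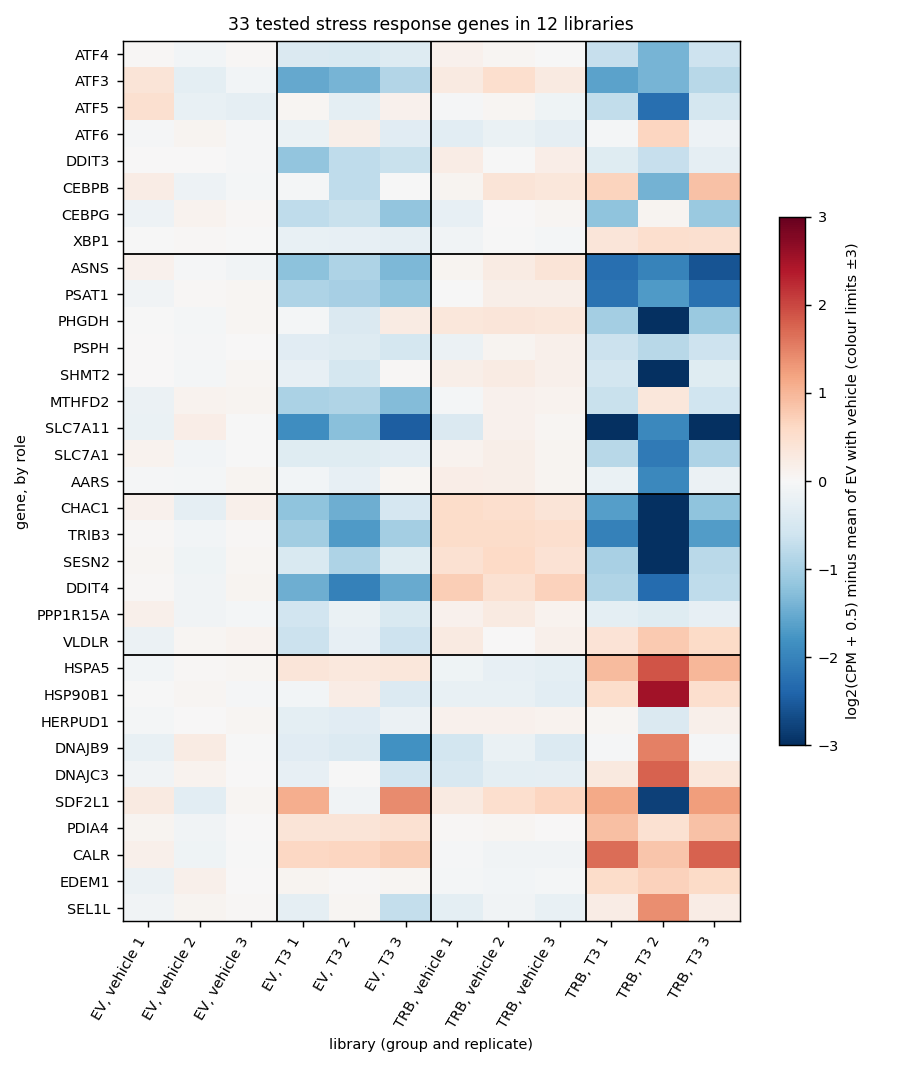
Level of the 33 tested members in each of the 12 libraries, as log2(CPM + 0.5) minus the mean of the 3 EV libraries with vehicle, with genes in rows by role (lines separate the 4 roles) and libraries in columns by group. Blue is lower and red is higher, and colours stop at 3 in either direction; the columns of TRB T3 replicates 1 and 3 resemble each other, while replicate 2 is bluer than both for SESN2 and SHMT2 and redder for HSP90B1.

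**Figure D2:**
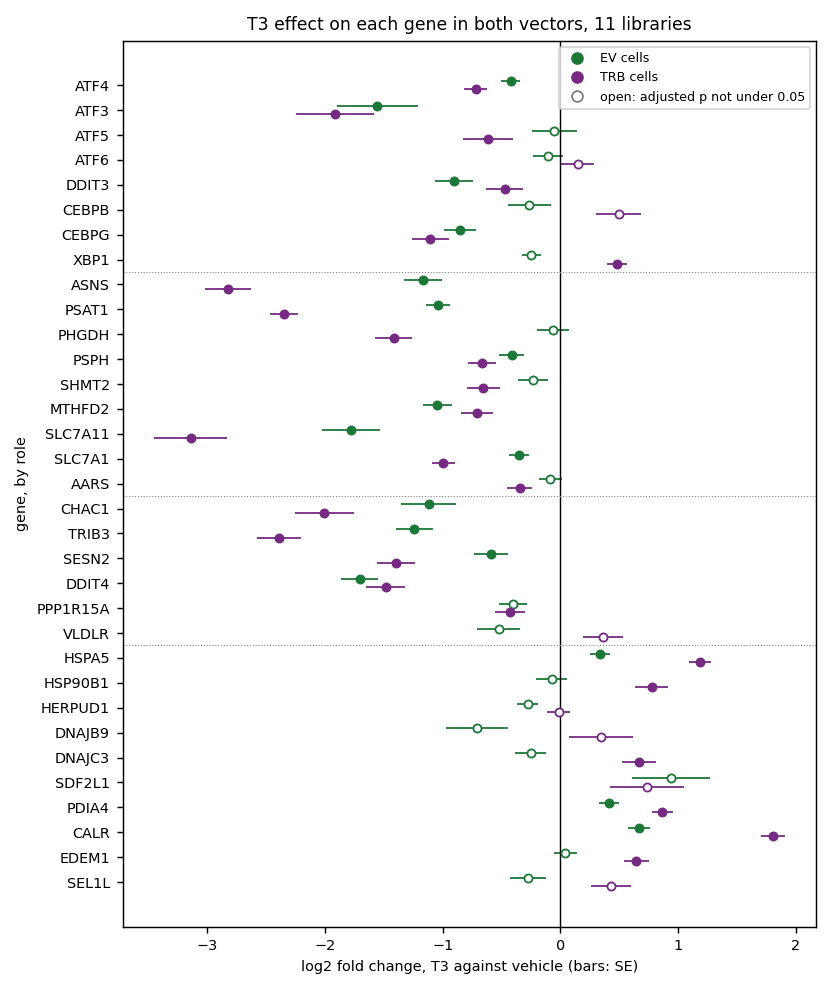
Log2 fold change of T3 against vehicle for the 33 tested members in EV cells (green) and TRB cells (purple) from the fit of 11 libraries, with bars of 1 SE; filled points passed an adjusted p of 0.05 and open points did not, and dotted lines separate the 4 roles. All 9 genes of amino acid and one-carbon supply are filled and left of 0 in TRB cells, and 6 of the 10 ER genes are filled and right of 0.

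Among the 8 transcription factors, 4 fell with T3 in EV cells and 0 rose, and in TRB cells 5 fell and XBP1 rose (medians -0.34 and -0.55). ATF4, the central factor of the integrated stress response, had 294, 270.1 and 291 CPM in EV with vehicle and 212, 206 and 219 with T3. In TRB cells ATF4 had 314, 296 and 284 CPM with vehicle and 177 and 185 with T3, with 108 in the replicate that stood apart. The T3 libraries lay below the vehicle libraries in both vectors with no overlap. The log2 fold change of ATF4 was -0.42, SE 0.0837, adjusted p 0.0117 in edgeR in EV cells and -0.72, SE 0.0948, adjusted p 7.92e-05 in TRB cells, and changes in parentheses from here on are log2 fold changes. In EV cells the fall of ATF4 was lost when replicate 3 of the vehicle group or replicate 1 of the T3 group was left out (-0.34 at its smallest, adjusted p up to 0.0623), and in TRB cells it passed in each of the 11 fits that left out 1 library but not with GC offsets on 12 libraries (-0.34, adjusted p 0.305).

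DDIT3, which encodes the pro-apoptotic factor CHOP, went from 12.1, 11.9 and 11.6 CPM to 4.99, 6.86 and 7.3 in EV cells (-0.90, SE 0.159, adjusted p 0.00622 in edgeR). In TRB cells it went from 14, 11.8 and 13.6 CPM to 9.18 and 9.76, with 7.19 in replicate 2 (-0.47, SE 0.158, adjusted p 0.0348). Again no T3 library reached a vehicle library of the same vector. The fall in TRB cells did not pass with all 12 libraries (-0.61, adjusted p 0.0564), with DESeq2 (adjusted p 0.0548), without a count filter (0.0991) or when replicate 1 or 3 of either TRB group, or replicate 3 of the EV vehicle group, was left out (adjusted p up to 0.216). CEBPG, a C/EBP family protein that dimerises with ATF4, fell from 168, 199 and 189.6 CPM to 109, 117 and 81.3 in EV cells (-0.85, SE 0.137, adjusted p 0.00362 in edgeR). In TRB cells CEBPG fell from 155, 187 and 194 to 80.2 and 85.7 CPM (-1.11, SE 0.157, adjusted p 0.000148), while the replicate that stood apart had 195 CPM, above all 3 vehicle libraries. With that library the change in TRB cells was -0.58, adjusted p 0.25.

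ATF3, a stress-induced repressor, fell in both vectors (-1.56 in EV and -1.92 in TRB cells) at levels between 0.871 and 5.39 CPM. In EV cells ATF3 lost its call under the same 2 omissions as ATF4 (adjusted p up to 0.0999). ATF5, another eIF2-controlled factor, fell in TRB cells (-0.62, adjusted p 0.0406 in edgeR) and had -0.05, adjusted p 0.881 in EV cells, and the test of the difference did not pass (-0.56, adjusted p 0.202). The fall was kept in the 5 fits that left out an EV library other than EV T3 replicate 1, and was lost in the other 6 (adjusted p up to 0.258). ATF6, the ER sensor, did not pass in either vector (-0.11 and 0.15). CEBPB, a C/EBP factor of stress and inflammation, went from 63.8, 79.8 and 76.6 to 96.3 and 111 CPM with T3 in TRB cells and to 22.5 in replicate 2, and did not pass there (0.50, adjusted p 0.0688) or in EV cells (-0.26, adjusted p 0.356). Both values depend on the processing. In TRB cells CEBPB was higher in edgeR with GC offsets (0.45, adjusted p 0.000394) and without a count filter (adjusted p 0.0138). It was also higher in the TRB libraries alone (0.000462) and with GC offsets on 12 libraries (1.08, 0.0257). It did not pass with the replicate block (0.116) or all 12 libraries (0.02, 0.975). In EV cells it was lower with GC offsets (-0.61, adjusted p 0.000193).

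XBP1, the factor made from the messenger RNA that IRE1 splices, went the other way in TRB cells. It had 402, 429.5 and 417 CPM with vehicle and 559 and 602 with T3, with 615 in replicate 2, and rose (0.48, SE 0.0874, adjusted p 0.00101 in edgeR). In EV cells XBP1 had 426, 439 and 429 CPM with vehicle and 371, 362 and 358 with T3, lower in every T3 library, and did not pass (-0.25, SE 0.0793, adjusted p 0.0761). The EV value depends on the processing: DESeq2 gave -0.24 (adjusted p 0.00855), and with GC offsets it was 0.01 (adjusted p 0.943). With GC offsets on 12 libraries the rise in TRB cells was 0.17 (adjusted p 0.53).

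In the group of amino acid and one-carbon supply, 9 of 9 members fell with T3 in TRB cells and 6 of 9 in EV cells, with 0 higher in either. The medians were -0.995 and -0.41. The C/EBP-ATF element is the sequence through which ATF4 dimers with C/EBP proteins act on such genes. It was searched as TGATGNAA on both strands in the RefSeq windows (GRCh38.p14) from 250 bases before to 50 after each start site, which exist for 31 of the 34 members (not PSPH, SHMT2 or SLC7A11). Members with several start sites have several windows, 43 in all. Of these 31, 7 held a match, where 3.617% of all 35116 windows did. The stretch around the match is shown for the 6 members whose match lies before the start site, 5′ to 3′ on the gene's strand with the match in capitals; in SLC7A1 it lies past the start site. Capitals that read TTGCATCA hold the element on the opposite strand. The same element thus stands before a gene of asparagine supply, before 2 of the factors above and before a gene of glutathione breakdown described further on.
ASNS chr7:97872444-97872501, minus strand: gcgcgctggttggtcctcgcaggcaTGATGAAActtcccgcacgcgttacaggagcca
AARS chr16:70289661-70289718, minus strand: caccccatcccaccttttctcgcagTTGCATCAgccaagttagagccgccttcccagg
ATF3 chr1:212565191-212565248, plus strand: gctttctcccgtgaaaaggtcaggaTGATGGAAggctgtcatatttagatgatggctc
CEBPG chr19:33374046-33374103, plus strand: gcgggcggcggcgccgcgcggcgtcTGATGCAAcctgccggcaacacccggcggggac
CHAC1 chr15:40953237-40953294, plus strand: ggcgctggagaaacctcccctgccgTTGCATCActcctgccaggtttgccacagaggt
HERPUD1 chr16:56931941-56931998, plus strand: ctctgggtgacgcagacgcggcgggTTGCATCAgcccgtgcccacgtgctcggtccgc
Of these 6 genes ASNS, ATF3, CEBPG, CHAC1 and AARS fell with T3 in TRB cells, and HERPUD1, which also holds an ER stress motif, did not pass. ATF4, ATF5, DDIT3, TRIB3, SESN2, DDIT4, PPP1R15A, PSAT1, PHGDH and MTHFD2 fell there as well and held no match in their windows. In EV cells ASNS, ATF3, CEBPG and CHAC1 fell, and AARS and HERPUD1 did not pass. A match is a description of the letters and shows no binding.

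ASNS, asparagine synthetase, went from 18.3, 16.4 and 15.5 CPM with vehicle to 6.86, 8.49 and 6.29 with T3 in EV cells (-1.17, SE 0.16, adjusted p 0.00123 in edgeR). In TRB cells ASNS went from 17.7, 20 and 21.9 CPM to 3.09 and 2.37, with 3.77 in replicate 2 (-2.83, SE 0.196, adjusted p 3.03e-07). The 3 TRB libraries with T3 were the lowest of all 12. ASNS passed in both vectors whichever of the 11 libraries was left out.

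The serine pathway makes serine and glycine from a glycolytic intermediate through PHGDH, PSAT1 and PSPH. PSAT1, its aminotransferase, had the highest mean level of the members per merged exon length in GENCODE in EV cells with vehicle, at 408 CPM per kb, and 86.6 CPM per kb in TRB cells with T3 (replicates 1 and 3). It fell from 834, 912 and 930.2 CPM to 469, 445 and 387 in EV cells (-1.04, SE 0.1, adjusted p 8.34e-05 in edgeR). In TRB cells PSAT1 fell from 882, 1011 and 1002 CPM to 191 and 187, with 274 in replicate 2 (-2.35, SE 0.122, adjusted p 2.38e-08), a fall of 5.1-fold. The T3 libraries of TRB cells, replicate 2 included, lay below those of EV cells, and these below every vehicle library. PHGDH, the first enzyme of the pathway, had 129, 125 and 135 CPM with vehicle and 125, 95.9 and 153 with T3 in EV cells, where the groups overlapped (-0.07, 95% interval -0.36 to 0.23, adjusted p 0.776 in edgeR). In TRB cells PHGDH fell from 164, 167 and 166 CPM to 63.8 and 60, and to 11.1 in replicate 2 (-1.42, SE 0.159, adjusted p 2.03e-05). PSPH, the phosphatase of the last step, fell in both vectors (-0.41 and -0.66). In EV cells PSPH passed without TRB vehicle replicate 1 or EV T3 replicate 2 and in none of the other 9 fits that left out 1 library (adjusted p up to 0.122).

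SHMT2 and MTHFD2 carry the serine carbon into the mitochondrial folate cycle. MTHFD2 fell from 343, 417 and 413 CPM to 201, 209 and 156 in EV cells (-1.05, SE 0.122, adjusted p 0.000349 in edgeR). In TRB cells it fell from 376, 428 and 420.3 CPM to 245 and 256 (-0.71, SE 0.137, adjusted p 0.0016), while replicate 2 had 491 CPM, above the 3 vehicle libraries. Including it, the change in TRB cells was -0.31, adjusted p 0.441. SHMT2 fell in TRB cells (-0.65, adjusted p 0.00331 in edgeR). In EV cells it had -0.23, adjusted p 0.241 and passed with GC offsets (-0.46, adjusted p 0.000115), and the test of the difference did not pass (-0.42, adjusted p 0.15; adjusted p 0.0102 with GC offsets). In TRB cells SHMT2 did not pass without TRB T3 replicate 1 (adjusted p 0.0583) or with all 12 libraries (-1.17, adjusted p 0.137).

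SLC7A11, the cystine importer xCT that feeds glutathione synthesis, had the most negative change of the 33 members in both vectors with 11 libraries. With 12 libraries TRIB3 (-2.89) and ASNS (-2.71) were more negative in TRB cells than SLC7A11 (-2.59). With GC offsets DDIT4 (-1.92), ATF3 (-1.55), TRIB3 (-1.52) and CHAC1 (-1.39) were in EV cells (SLC7A11 -1.29). SLC7A11 fell from 257, 339 and 294 CPM to 80.3, 124 and 52.8 in EV cells (-1.78, SE 0.249, adjusted p 0.00146 in edgeR). In TRB cells SLC7A11 fell from 218, 320.3 and 309 CPM to 34.9 and 28.8, with 77.5 in replicate 2 (-3.14, SE 0.311, adjusted p 6.85e-06), a fall of 8.83-fold. No T3 library of either vector reached a vehicle library. SLC7A1, the cationic amino acid transporter CAT1, went from 465, 412 and 431 CPM to 338, 337 and 349 in EV cells (-0.35, SE 0.0833, adjusted p 0.028 in edgeR). In TRB cells it went from 469, 489 and 462 CPM to 245 and 230.2, with 99.9 in replicate 2 (-0.995, SE 0.0956, adjusted p 5.22e-06). The fall in EV cells was lost in 6 of 11 single-library omissions (adjusted p up to 0.101), and kept without TRB vehicle replicate 1 or 2, TRB T3 replicate 3, or EV T3 replicate 2 or 3. AARS, alanyl-tRNA synthetase, fell in TRB cells (-0.35, adjusted p 0.027 in edgeR). In EV cells it had -0.09, adjusted p 0.578 and passed with GC offsets (-0.26, adjusted p 0.00655), and the test of the difference did not pass (-0.26, adjusted p 0.252). In TRB cells AARS did not pass without a count filter (adjusted p 0.0578) or without TRB vehicle replicate 1 or 2 or TRB T3 replicate 1 or 3 (adjusted p up to 0.152).

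**Figure D3:**
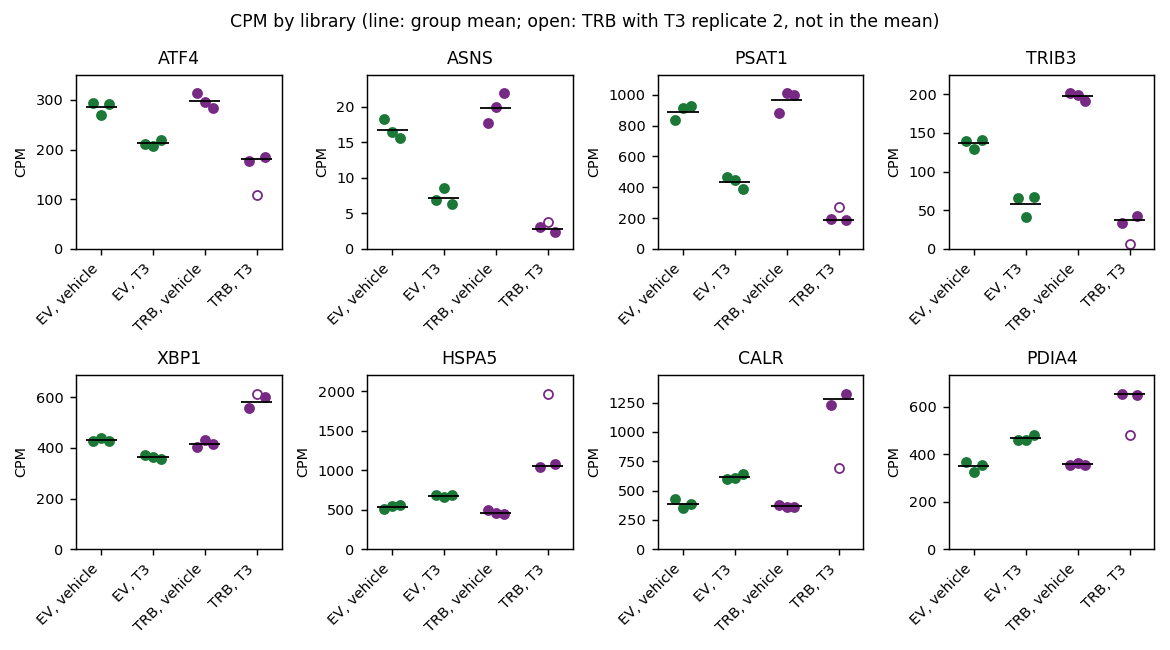
CPM in each library of 8 members chosen to show each role, with a linear axis from 0, 1 panel per gene, points for libraries, lines for group means and an open point for TRB T3 replicate 2, which is not in the mean. ATF4, ASNS, PSAT1 and TRIB3 step down with T3 in both vectors, CALR, PDIA4 and HSPA5 step up in both, and XBP1 is higher with T3 in TRB cells (559 to 615 CPM) than in the other 3 groups (358 to 439 CPM).

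Among the other ATF4 outputs, 4 of the 6 tested members fell with T3 in EV cells and 5 of 6 in TRB cells, with 0 higher (medians -0.85 and -1.44). TRIB3, a pseudokinase that restrains ATF4 and AKT, fell from 139, 129.5 and 140.5 CPM to 66, 41.8 and 66.7 in EV cells (-1.24, SE 0.159, adjusted p 0.00072 in edgeR). In TRB cells TRIB3 fell from 201, 199 and 192 CPM to 33.3 and 42.2, and to 5.93 in replicate 2 (-2.39, SE 0.189, adjusted p 9.37e-07). Vehicle and T3 libraries were separate in both vectors. DDIT4, the mTORC1 inhibitor REDD1, fell from 42, 37.7 and 43.3 CPM to 14.5, 9.69 and 14.1 in EV cells (-1.71, SE 0.157, adjusted p 5.96e-05 in edgeR). In TRB cells it fell from 68.2, 56.5 and 66.2 CPM to 21.7 and 23.9, with 7.91 in replicate 2 (-1.49, SE 0.163, adjusted p 1.74e-05). DDIT4, DDIT3 and MTHFD2 were the 3 of the 17 shared members whose change was not larger in TRB than in EV cells.

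CHAC1, which breaks down glutathione, fell in both vectors (-1.12 in EV and -2.01 in TRB cells), as did SESN2, a leucine sensor upstream of mTORC1 (-0.59 and -1.40). In EV cells CHAC1 lost its call when replicate 3 of the vehicle group or replicate 1 of the T3 group was left out (adjusted p up to 0.0805), and SESN2 passed in 3 of 11 such fits, those without TRB vehicle replicate 1, EV T3 replicate 2 or EV T3 replicate 3 (adjusted p up to 0.113 in the others). SESN2 with all 12 libraries did not pass in TRB cells (-1.96, adjusted p 0.0627). PPP1R15A, the phosphatase subunit GADD34 that reverses eIF2 phosphorylation, fell in TRB cells (-0.43, adjusted p 0.0221 in edgeR). In EV cells PPP1R15A had -0.40, adjusted p 0.0567, and passed with DESeq2 (0.0184), the replicate block (0.0436) and GC offsets (0.00961); the difference between the vectors was -0.02, adjusted p 0.938. Its direction in TRB cells depends on the processing, since it was 0.54 (adjusted p 0.414) with GC offsets on 12 libraries, and it did not pass without TRB vehicle replicate 2 or TRB T3 replicate 1 or 3 (adjusted p up to 0.153). VLDLR, a lipoprotein receptor induced through ATF4, had 6.03, 7.2 and 7.49 CPM with vehicle and 4.21, 5.77 and 4.28 with T3 in EV cells. In TRB cells VLDLR had 8.35, 6.9 and 7.72 CPM with vehicle and 9.34 and 10.4 with T3, with 12.2 in replicate 2, and it did not pass in either vector (-0.53, adjusted p 0.0891 and 0.36, adjusted p 0.12). STC2, a secreted glycoprotein of the ER stress response, had 2 counts in 1 EV library with vehicle, 1 count in 1 EV library with T3 and 0 in the other 10 libraries, and was not tested.

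Of the 10 members of ER folding and degradation, 3 rose with T3 in EV cells and 6 in TRB cells, with 0 lower in either (medians -0.02 and 0.70). The same 6 rose with all 12 libraries, where the median was 1.00. The ER stress response element is where ATF6, with the factor NF-Y, acts on chaperone genes. It was searched as CCAAT and CCACG with any 9 bases between (ERSE), and as ATTGG and CCACG with any 1 base between (ERSE-II), on both strands of the same windows. ERSE stood in any window of 4 of the 31 members and in 0.0769% of all single windows, and ERSE-II in 2 members and in 0.0541% of windows. Here too genes are set beside windows, for members chosen by pathway. The XBP1 element TGACGTGG stood in 0 members and in 0.729% of windows. The matches with 25 bases on each side are shown because they are few among all windows; where the capitals begin with CGTGG, the element lies on the opposite strand.
HSPA5 chr9:125241366-125241434, minus strand: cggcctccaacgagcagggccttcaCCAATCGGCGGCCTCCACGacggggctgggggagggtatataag
HSP90B1 chr12:103930191-103930259, plus strand: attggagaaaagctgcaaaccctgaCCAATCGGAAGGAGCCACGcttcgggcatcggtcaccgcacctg
HSP90B1 chr12:103930296-103930364, plus strand: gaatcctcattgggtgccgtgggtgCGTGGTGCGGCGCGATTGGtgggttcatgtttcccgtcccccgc
CALR chr19:12938359-12938427, plus strand: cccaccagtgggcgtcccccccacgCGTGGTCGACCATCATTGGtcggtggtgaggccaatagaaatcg
XBP1 chr22:28800578-28800646, minus strand: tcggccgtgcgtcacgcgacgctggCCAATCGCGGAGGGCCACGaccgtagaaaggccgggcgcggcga
HERPUD1 chr16:56932000-56932060, plus strand: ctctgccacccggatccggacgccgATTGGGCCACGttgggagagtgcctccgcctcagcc
SDF2L1 chr22:21642089-21642149, plus strand: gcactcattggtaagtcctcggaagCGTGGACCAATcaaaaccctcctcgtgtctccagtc
HSPA5, HSP90B1, CALR and XBP1, the 4 members with an ERSE match, all rose with T3 in TRB cells, and HERPUD1 and SDF2L1, with ERSE-II, did not pass. PDIA4, DNAJC3 and EDEM1, which rose in TRB cells as well, held neither element in their windows. In EV cells HSPA5 and CALR rose, while HSP90B1 (-0.07, adjusted p 0.731 in edgeR) and XBP1 (-0.25, adjusted p 0.0761) did not pass. HERPUD1 holds both ERSE-II and the C/EBP-ATF element, and of the amino acid genes PSAT1, PHGDH and MTHFD2 held no match to the latter.

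HSPA5 encodes BiP, the main chaperone of the ER lumen and the brake on its stress sensors. In EV cells it had 505, 552 and 554 CPM with vehicle and 687, 665 and 679.5 with T3 (0.33, SE 0.0847, adjusted p 0.036 in edgeR). In TRB cells HSPA5 had 492, 452 and 439.9 CPM with vehicle and 1034 and 1071 with T3, with 1969.7 in replicate 2 (1.19, SE 0.093, adjusted p 8.59e-07). T3 libraries were above vehicle libraries throughout. The rise of HSPA5 in EV cells held in 3 of 11 single-library omissions, those without TRB vehicle replicate 1, EV T3 replicate 2 or EV T3 replicate 3 (range 0.29 to 0.41, adjusted p up to 0.121).

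CALR, the lectin chaperone calreticulin, had the most positive change of the members in TRB cells with 11 libraries, while with 12 HSP90B1 (1.77) and HSPA5 (1.55) lay above it (1.53). It went from 429, 353 and 381 CPM to 594, 608 and 643 in EV cells (0.67, SE 0.0933, adjusted p 0.00146 in edgeR). In TRB cells CALR rose from 376, 361 and 361 CPM to 1232 and 1327, with 691 in replicate 2 (1.81, SE 0.102, adjusted p 5.15e-08), a rise of 3.5-fold. Per exon length the mean level of CALR was 472 CPM per kb in TRB cells with T3 (replicates 1 and 3), against 143 in EV cells with vehicle. PDIA4, a disulfide isomerase, rose from 369.6, 327 and 356 CPM to 460.2, 461 and 480.0 in EV cells (0.41, SE 0.0816, adjusted p 0.0117 in edgeR). In TRB cells PDIA4 rose from 356, 363 and 356 CPM to 657 and 649, with 481 in replicate 2 (0.87, SE 0.0895, adjusted p 9.97e-06). For both genes the T3 libraries of TRB cells were the highest, those of EV cells were next and the vehicle libraries were lowest. In EV cells PDIA4 did not pass without EV vehicle replicate 2 or 3 (adjusted p up to 0.0745).

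HSP90B1, the ER form of HSP90 (GRP94), had 819.9, 865 and 812 CPM with vehicle and 780.4, 965 and 623 with T3 in EV cells, where the groups overlapped (-0.07, 95% interval -0.36 to 0.21, adjusted p 0.731 in edgeR). In TRB cells HSP90B1 rose from 709.8, 711 and 667 CPM to 1202 and 1181 (0.78, SE 0.143, adjusted p 0.0011), and replicate 2 had 4735 CPM, so that the change was 1.77, adjusted p 0.0318 with all 12 libraries. DNAJC3, the co-chaperone p58IPK that also inhibits eIF2 kinases, had 116, 136 and 126 CPM with vehicle and 107, 125 and 84 with T3 in EV cells, again overlapping (-0.25, 95% interval -0.54 to 0.03, adjusted p 0.224 in edgeR). In TRB cells it rose from 90.1, 103 and 104 CPM to 155 and 159.9, with 433 in replicate 2 (0.67, SE 0.144, adjusted p 0.00313). EDEM1, which hands misfolded glycoproteins to degradation, rose in TRB cells (0.65, adjusted p 0.000542 in edgeR) and did not pass in EV cells (0.04, adjusted p 0.807). HERPUD1, DNAJB9, SDF2L1 and SEL1L, which serve degradation or co-chaperone roles, did not pass in either vector in the fit of 11 libraries, with changes of -0.28, -0.71, 0.94 and -0.27 in EV cells and -0.01, 0.35, 0.74 and 0.43 in TRB cells. Other settings gave calls in EV cells. HERPUD1 was lower with DESeq2 (-0.28, adjusted p 0.0438) and with GC offsets in edgeR (-0.32, adjusted p 0.00575). SDF2L1 was higher with DESeq2 (adjusted p 0.0341), and in edgeR with GC offsets (adjusted p 0.0464) or the replicate block (adjusted p 0.0475). Without a count filter in edgeR SDF2L1 was higher (0.93, adjusted p 0.000799) and DNAJB9 lower (-0.73, adjusted p 0.00331).

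The interaction term asks whether the T3 effect itself differed between the vectors. It passed for 15 of 33 members, where it passed for 15.2% of all genes. The T3 effect of 8.55% of genes was more positive in TRB cells and that of 6.68% more negative. The 8 with a more positive effect were CALR, HSPA5, XBP1, DNAJC3, HSP90B1, VLDLR, PDIA4 and EDEM1, of which 6 are ER genes. The 7 with a more negative effect were PSAT1, PHGDH, ASNS, SLC7A1, TRIB3, SLC7A11 and SESN2, of which 5 belong to amino acid and one-carbon supply. Among the members that passed, the differences of largest size were those of ASNS (-1.66, SE 0.256, adjusted p 0.0011 in edgeR), SLC7A11 (-1.36, SE 0.375, adjusted p 0.0282) and PHGDH (-1.35, SE 0.207, adjusted p 0.00102) on the negative side. On the positive side were CALR (1.14, SE 0.138, adjusted p 0.000194 in edgeR), DNAJC3 (0.92, SE 0.196, adjusted p 0.00755) and VLDLR (0.89, SE 0.246, adjusted p 0.0291), while DNAJB9 differed by 1.06, adjusted p 0.0785 and did not pass. PSAT1 had the smallest adjusted p of the members (-1.31, SE 0.151, adjusted p 0.000132 in edgeR). HSPA5 differed by 0.85, SE 0.126, adjusted p 0.000801, XBP1 by 0.73, SE 0.118, adjusted p 0.00157, HSP90B1 by 0.85, SE 0.194, adjusted p 0.0114, TRIB3 by -1.15, SE 0.237, adjusted p 0.00661 and SLC7A1 by -0.64, SE 0.125, adjusted p 0.00481 in edgeR. For ATF4 (-0.30, 95% interval -0.57 to -0.03, adjusted p 0.13 in edgeR) and DDIT3 (0.43, 95% interval -0.06 to 0.92, adjusted p 0.22) the adjusted test did not pass.

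In the fit of 12 libraries the interaction passed for 1 member, ASNS (-1.51, adjusted p 0.0277 in edgeR), where 2.59% of all genes passed, 1.77% more positive and 0.825% more negative. XBP1 did not pass with GC offsets on 11 libraries (0.39, adjusted p 0.057), and PDIA4 and EDEM1 did not without a count filter (adjusted p 0.13 and 0.0567). TRIB3 and HSP90B1 did not pass without TRB T3 replicate 1 (adjusted p 0.059 and 0.0564), and EDEM1 did not without TRB T3 replicate 1 or 3 or EV vehicle replicate 2 (adjusted p up to 0.0817). Most fits that left out 1 of the 11 libraries lost SLC7A11, VLDLR, SESN2 and PDIA4. SLC7A11 was kept without TRB vehicle replicate 1, EV vehicle replicate 2 or EV T3 replicate 2 or 3, VLDLR without TRB vehicle replicate 1, EV vehicle replicate 1 or EV T3 replicate 2 or 3, SESN2 without TRB vehicle replicate 1 or 3, EV vehicle replicate 1 or EV T3 replicate 2 or 3, and PDIA4 without EV T3 replicate 2 or 3 (adjusted p up to 0.136, 0.112, 0.139 and 0.103 in the others). The other 8 members, PSAT1, CALR, HSPA5, PHGDH, ASNS, SLC7A1, DNAJC3 and XBP1, passed in 11 of 11.

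With T3 in both, TRB cells were compared with EV cells, a contrast that shares its T3 libraries with those above. Here 18 members differed, 12 higher and 6 lower in TRB cells, where 19.7% of all genes differed, 11.8% higher and 7.90% lower. ER genes were higher in 7 of 10 cases and lower in 0, with a median of 0.54 against 0.02 over all genes. CALR (1.06, SE 0.102, adjusted p 1.39e-05 in edgeR), HSPA5 (0.64, SE 0.0934, adjusted p 0.00041), PDIA4 (0.48, SE 0.09, adjusted p 0.00222), HSP90B1, DNAJC3, EDEM1 and HERPUD1 made up the 7. Of amino acid and one-carbon supply, 5 of 9 were lower and 0 higher: PSAT1 (-1.20, SE 0.116, adjusted p 1.41e-05 in edgeR), ASNS (-1.40, SE 0.215, adjusted p 0.000585), PHGDH (-1.001, SE 0.158, adjusted p 0.000697), SLC7A1 (-0.52, SE 0.0944, adjusted p 0.0018) and SLC7A11 (-1.44). Among the factors XBP1 (0.67, SE 0.0874, adjusted p 0.000159 in edgeR), CEBPB (1.04, SE 0.198, adjusted p 0.00264) and DDIT3 (0.58, SE 0.176, adjusted p 0.0365) were higher, and ATF4 did not pass (-0.23, SE 0.094, adjusted p 0.107), although it did in 1 of 11 fits, the one without EV T3 replicate 2. Among the other outputs VLDLR (1.01, SE 0.187, adjusted p 0.00216 in edgeR) and DDIT4 (0.86) were higher and TRIB3 (-0.62) was lower, although 1 EV and 1 TRB library overlapped for TRIB3.

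In the fit of 12 libraries 5 members differed, XBP1, VLDLR and HSPA5 higher and ASNS and PSAT1 lower, where 6.68% of all genes differed, 4.13% higher and 2.55% lower. For CEBPB, DDIT4, DDIT3, HERPUD1 and SLC7A11 the groups overlapped once that library was added. Leaving out 1 library at a time, DDIT3 passed in 5 of 11 fits and HERPUD1 in 6 (adjusted p up to 0.166 for each). Calls were also lost without TRB T3 replicate 3 for SLC7A11 and EDEM1 (adjusted p 0.0609 and 0.0518), without replicate 1 or 3 of that group for HSP90B1 and DNAJC3 (up to 0.0843 and 0.109), and without either of these or EV T3 replicate 1 for TRIB3 (up to 0.29). Without TRB T3 replicate 3 the number of members called fell to 11.

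In vehicle, TRB and EV cells were compared to ask what the supplied receptor changes without added hormone. No member passed: 0 of 33 in edgeR with 11 or 12 libraries, where 0.0742% (0.0270% higher, 0.0472% lower) and 0.0208% (0.00693% higher, 0.0139% lower) of all genes passed. With 11 libraries 7 members had an unadjusted p under 0.05, and with 12 libraries 0, and the share of all genes at that level was not counted. DDIT4 was the 1 member called by DESeq2. It stood at 42, 37.7 and 43.3 CPM in EV and 68.2, 56.5 and 66.2 in TRB cells (0.64, 95% interval 0.34 to 0.94, adjusted p 0.174 in edgeR), and the groups did not overlap. The other outputs TRIB3 (0.53), SESN2 (0.50) and CHAC1 (0.49) also lay higher in every TRB library, without passing. So did PHGDH (0.35), SHMT2 (0.19), AARS (0.15) and the ER genes SDF2L1 (0.55) and HERPUD1 (0.11). Lower in every TRB library were ATF6 (-0.26), HSPA5 (-0.22), HSP90B1 (-0.26) and DNAJC3 (-0.35), also without passing. The ER genes thus lay in both directions, and the share of all genes without overlap was not counted. For ATF4 (0.06, 95% interval -0.12 to 0.24, adjusted p 0.681), XBP1 (-0.05, 95% interval -0.22 to 0.12, adjusted p 0.73) and DDIT3 (0.15, 95% interval -0.16 to 0.45, adjusted p 0.572 in edgeR) no interval reached past 0.45 in either direction. In the 6 vehicle libraries alone 1563 of 14008 genes passed, and 8 members, 5 higher (DDIT4, TRIB3, SESN2, CHAC1 and PHGDH) and 3 lower (DNAJC3, HSP90B1 and ATF6), and without EV T3 replicate 2 there were 725 of 14910 genes and 5 members.

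The wider pathways were read from 5 lists of 110 further genes, of which 106 were tested. With T3 in TRB cells 30 of these rose and 28 fell, and in EV cells 5 rose and 21 fell, to be read against the 33.3% and 7.33% of all genes that changed. The aminoacyl-tRNA synthetases and the tRNA export factor XPOT fell in 11 of 12 cases in TRB cells and in 9 of 12 in EV cells, with 0 higher (medians -0.74 and -0.50). SARS, seryl-tRNA synthetase, went from 289, 279 and 276 CPM to 204, 194 and 188 in EV cells (-0.53, SE 0.0813, adjusted p 0.00275 in edgeR), and in TRB cells from 291, 293 and 273 to 114 and 119.6, with 71 in replicate 2. Further ATF4 targets of amino acid transport and metabolism fell in 9 of 13 tested cases in TRB cells and in 5 in EV cells, and 1 rose in TRB cells (medians -1.31 and -0.45). SLC6A9, the glycine transporter GlyT1, fell from 27, 29.2 and 25.4 CPM to 3.33 and 2.77 in TRB cells, with 0 counts in replicate 2 (-3.13, SE 0.222, adjusted p 3.81e-07 in edgeR), and had 21.2, 13.2 and 18.9 CPM with vehicle and 9.2, 7.84 and 8.55 with T3 in EV cells. MTHFD1L, of mitochondrial one-carbon metabolism, fell from 83.3, 75.2 and 78.9 CPM to 21.7 and 17.8 in TRB cells, with 19.8 in replicate 2 (-1.99, SE 0.125, adjusted p 1.27e-07 in edgeR). SLC1A4, a transporter of neutral amino acids, fell in EV cells from 42.2, 40.6 and 47.7 CPM to 27.1, 23.7 and 26.4 (-0.76, SE 0.108, adjusted p 0.00156 in edgeR). For each of these 4 genes no T3 library reached a vehicle library of the same vector.

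The further ER genes rose in 19 of 42 cases with T3 in TRB cells and 1 fell (median 0.33), while in EV cells 4 rose and 3 fell (median -0.11). CREB3L1, an ER membrane factor related to ATF6, rose from 106, 126 and 119 CPM to 706 and 790.1 in TRB cells (2.68, SE 0.147, adjusted p 3.92e-08 in edgeR), with 172 CPM in replicate 2. In EV cells it had 147, 110.3 and 121 CPM with vehicle and 180.5, 158 and 211 with T3. SEC24D, a coat protein of vesicles that leave the ER, rose from 45.5, 50.5 and 41.9 CPM to 148 and 154 in TRB cells, with 157 in replicate 2 (1.72, SE 0.123, adjusted p 4.19e-07 in edgeR), and had 52.2, 49.5 and 50.7 CPM and 41.5, 49.6 and 54.6 CPM in EV cells. CRELD2, a secreted ER stress protein, rose in EV cells from 6.7, 7.36 and 8.78 CPM to 17, 15.2 and 19.4 (1.14, SE 0.158, adjusted p 0.00143 in edgeR). The interaction passed for 12 of the 42 with a more positive effect in TRB cells and for 0 with a more negative one. Of the further ATF4 targets it passed for 8 of 13 with a more negative effect and for 1 with a more positive one, and of the synthetases for 4 of 12, all more negative. Over all genes it passed for 8.55% with a more positive effect and for 6.68% with a more negative one.

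The sensors and translation control genes include the eIF2 kinases and the subunits of eIF2 and eIF2B. Of 23 tested, 2 rose and 4 fell with T3 in TRB cells, a share not far from the 33.3% of all genes. The difference from that share was not tested. In EV cells 2 of the 23 fell, a share near the 7.33% of all genes. Of 16 tested further stress outputs 8 rose and 3 fell in TRB cells, and 1 rose and 2 fell in EV cells. VEGFA, the angiogenic factor, fell in EV cells from 271, 259 and 253 CPM to 149, 137 and 140.1 (-0.88, SE 0.0821, adjusted p 6.45e-05 in edgeR). NUPR1, a stress-induced chromatin protein, had 2.34, 1.85 and 2.01 CPM in EV cells and 17.8 and 20.2 in TRB cells with T3, with 3.95 in replicate 2 (3.20, SE 0.269, adjusted p 4.52e-06 in edgeR). Between the vectors with T3, 24 of the 106 were higher and 13 lower in TRB cells, where 11.8% of all genes were higher and 7.90% lower. In vehicle 0 passed in edgeR, where 0.0742% of all genes did. An unadjusted p under 0.05 was found for 16, and the share of all genes at that level was not counted. In the fit of 12 libraries the further genes that rose and fell numbered 14 and 15 for T3 in TRB cells and 0 and 0 in EV cells, where 13 had an unadjusted p under 0.05. For these 13 too the share of all genes at that level was not counted. Of all genes in that fit 8.54% rose and 6.20% fell in TRB cells, and 0.208% and 0.0208% in EV cells.

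In the TRB T3 replicate that stood apart, the difference of each member followed its GC content, as that of all genes did. Over the 33 tested members, GC content and the difference from replicates 1 and 3 had a Spearman coefficient of -0.90, given as a description of 1 library. SLC7A11 (35.4% GC) lay 1.28 higher there on the log2 scale, HSP90B1 (41.2%) 1.99 higher and DNAJC3 (39.9%) 1.46 higher. SDF2L1 (65.5%) changed by -4.00, SESN2 (59.5%) by -3.59 and SHMT2 (57.0%) by -2.61. Median GC content was 59.2% for the other ATF4 outputs, 49.8% for amino acid and one-carbon supply, 48.2% for the factors and 45.6% for the ER genes, against 48.4% over 12334 tested genes. With GC offsets on the 11 libraries 23 members changed with T3 in EV cells (4 higher, 19 lower; 2214 of 12334 genes) and 29 in TRB cells (10 higher, 19 lower; 6905 of 12334 genes). The part of GC content in the results was not tested beyond these offsets.

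**Figure D4:**
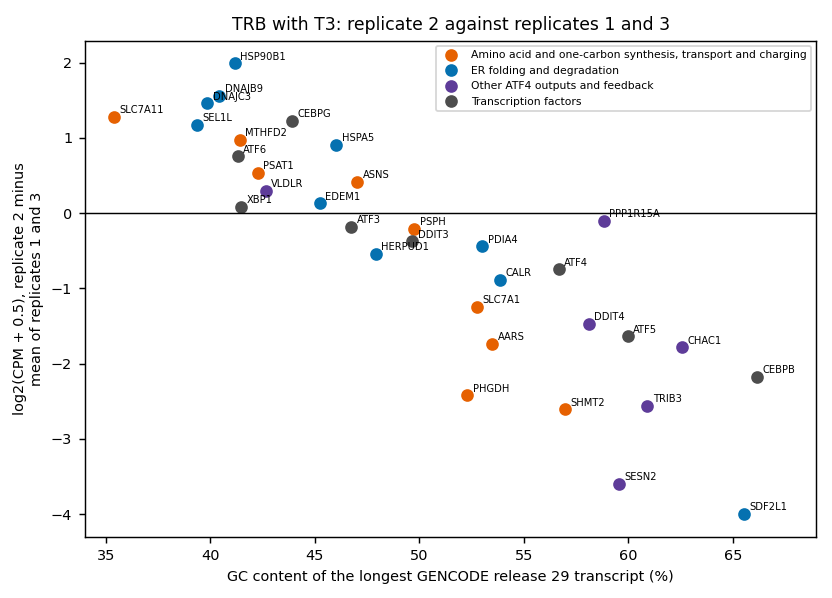
Difference in log2(CPM + 0.5) between replicate 2 and the mean of replicates 1 and 3 of TRB with T3 (vertical axis) against the GC content of the longest GENCODE release 29 transcript in percent (horizontal axis), 1 point per tested member, coloured by role. Points fall from the upper left (HSP90B1 at 1.99) to the lower right (SDF2L1 at -4.00), with members of every role along the way.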

How the data were processed

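RNA of 12 libraries (4 groups of 3, taken from the labels) was measured. Trizol was used for RNA and a Kapa Hyperprep RNA kit for the libraries, per the labels' protocols. Per the submitters' processing notes, CASAVA 1.7, STAR 2.7, HTSeq 0.10 and DESeq2 were used with build hg38; annotation and strand setting are not given in the sources used here, so reads of overlapping genes or near-identical copies are uncertain. The authors deposited raw counts per symbol for each library, and their 5 closing lines for reads of no gene (19.03% to 91.95% of a file was non-unique alignments) stayed out of library sizes and tests. The authors' deposited normalized table, read as a score since no source gives its scaling, served only to match its columns with libraries.

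The tests used edgeR 4.0.16 under R 4.3.3 (filterByExpr with minimum count 10 and minimum total 15, TMM, a coefficient per group, quasi-likelihood test, two-sided, Benjamini-Hochberg over all genes tested, 0.05). SE is the log2 fold change over the square root of F. The procedure was tested on simulated counts. Counts covered 3819306 to 13086717 reads per library, which limits precision for genes under about 10 counts. Members, lists, tests and the choice of 11 libraries were made with earlier results of these data known. Members past the threshold, up to the 10 with the smallest adjusted p per comparison, were named with full values, as were ATF4, DDIT3, HSPA5 and XBP1, and up to 4 further genes per comparison; the other members are given in brief, and any value for them was chosen to account for every member. Alternatives were all 12 libraries, DESeq2 1.42.0 and its size factors, no count filter, the compared groups alone, a replicate block, GC offsets (spline with 5 degrees of freedom; 83.2% of tested genes had a GC value by symbol from GENCODE release 29) and leaving out each library. Promoter windows came from RefSeq (GRCh38.p14), with AARS matched by its current symbol. A marker gene is not reported here.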

Additional observations from a re-analysis of the deposited data

Results flagged for a closer look

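The T3 effect differed between TRB and EV cells, by the interaction term in edgeR on 11 libraries, for 15 members and 4 named further genes. The differences (log2, TRB minus EV) of the members were -1.66 for ASNS, -1.36 for SLC7A11, -1.35 for PHGDH, -1.31 for PSAT1, -1.15 for TRIB3, -0.81 for SESN2 and -0.64 for SLC7A1. On the positive side they were 1.14 for CALR, 0.92 for DNAJC3, 0.89 for VLDLR, 0.85 for HSPA5, 0.85 for HSP90B1, 0.73 for XBP1, 0.60 for EDEM1 and 0.45 for PDIA4. Of the further genes CREB3L1 differed by 2.14, SEC24D by 1.78, MTHFD1L by -1.38 and SLC6A9 by -2.09. Of these 19 genes ASNS, SEC24D and MTHFD1L also passed with all 12 libraries (adjusted p 0.0277, 0.00285 and 0.00759 in edgeR).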

How the results depend on the processing

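The number of members called moved with the libraries in the fit. For T3 in EV cells it was 17 (11 libraries), 0 (12 libraries) and 8 (the compared groups alone), and ran from 9 (without EV vehicle replicate 3) to 23 (without EV T3 replicate 2) when each library was left out. For T3 in TRB cells it was 26, and 18 to 30 over the alternatives. Between the vectors in vehicle it was 0, then 1 with DESeq2, 2 without a count filter, 2 with GC offsets, 2 with the replicate block and GC offsets, and 8 with the compared groups alone, and it ran from 0 to 5 when each library was left out. Between the vectors with T3 it was 18, then 5 (12 libraries) and 9 (compared groups alone), and ran from 11 (without TRB T3 replicate 3) to 23. GC offsets gave 27 there, 15 higher and 12 lower. The interaction passed for 15, for 1 with 12 libraries, and for 8 (without TRB T3 replicate 1) to 24 (without EV T3 replicate 2). With GC offsets on all 12 libraries the counts were 14, 25, 0, 20 and 14 in that order. The cause of these changes was not tested. No named gene that passed changed direction, except PPP1R15A with T3 in TRB cells, which was 0.54 and did not pass with GC offsets on 12 libraries. The 70 named results include some that had not passed with 11 libraries, since ATF4, DDIT3, HSPA5 and XBP1 were named whatever their result. Of those that had passed, 35 no longer did with 12 libraries and 9 with GC offsets on 12 libraries. Correlations between the deviations of same-numbered libraries ran from -0.079 to 0.452, highest for replicate 2 of EV with T3 and with vehicle. Whether same-numbered libraries share a batch was not tested. With the replicate block in edgeR the counts were 19, 27, 0, 20 and 18, and DDIT3 between the vectors with T3 did not pass (adjusted p 0.0623). Members under about 10 CPM, such as ATF3 and VLDLR, have few counts per library.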
